A study of Mus musculus with 6 samples.

Results

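The genes described are 9 receptors through which chemokines direct leukocytes to tissues. They are Ccr1, Ccr2, Ccr4, Ccr6, Ccr9, Cxcr3, Cxcr4, Cxcr5 and Cxcr6, and they were taken by name from a deposited table of read counts for 51361 genes. All 9 had counts in every library and passed the filter on low counts, which 16657 genes passed. The genes were taken by name and not by a rule on their levels, but earlier results of these data were known when they were chosen.

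The libraries are bulk RNA sequencing of cells labelled as regulatory T cells (Tregs), a class of CD4 lymphocyte that holds immune responses in check, sorted as CD4+CD25+Foxp3+ cells at 500 to 1000 cells per library. Every mouse was a 9-week-old male of the C57BL/6N background that carried Tg(Foxp3-DTR/EGFP)23.2Spar, a transgene in which Foxp3 regulatory sequence drives the diphtheria toxin receptor and green fluorescent protein. In 2 groups the mice had a 60 min transient middle cerebral artery occlusion (tMCAO), a stroke model that blocks a brain artery for a time and then lets blood back in. Their cells were collected on day 14 from brain (tMCAO brain) or blood (tMCAO blood). In the third group cells came from the blood of sham-operated mice (sham blood). Each group had 2 libraries, numbered 1 and 2, and the labels do not say whether each came from its own animals. The p-values therefore rest on the spread of these libraries alone, which could be technical.

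Chemokine receptors are membrane proteins coupled to inhibitory G proteins. A cell that bears one moves up a gradient of its ligand, adheres to vessel walls through integrins that the receptor switches on, and enters the tissue. Ccr1, Ccr2, Cxcr3 and Cxcr6 are known for recruitment to inflamed tissue, Ccr4, Ccr6 and Ccr9 for homing of T cells to skin and mucosa, and Cxcr4 and Cxcr5 for retention in bone marrow and entry into lymphoid follicles. On Tregs these receptors place the cells beside the effector cells they restrain.

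The libraries did not all match the sort by their RNA. Foxp3, the transcription factor that defines Tregs, had levels of 0.726 and 19.6 CPM (its reads relative to all reads of the library) in tMCAO brain, 0.538 and 5.18 CPM for tMCAO blood and 50.1 and 60.7 CPM for sham blood, so library 1 of both tMCAO groups held little of it. The 15 T cell markers took 0.0274% and 0.143% of counts for tMCAO brain, 0.0633% and 0.420% for tMCAO blood and 0.814% and 0.781% for sham blood. Sham blood held the most red cell RNA. The 9 red cell markers in the count table took 0.00112% and 0.00272% of counts for tMCAO brain, 0.109% and 3.85% for tMCAO blood and 15.7% and 17.3% for sham blood. The part of red cell RNA in the comparisons with sham blood was not tested. The 95% Wilson intervals of the marker shares printed here reached at most 4.68% of the share to either side, but 14% for the red cell markers and 28.4% for the neutrophil markers, counting error only. In bulk libraries fewer cells of a type and less RNA per cell cannot be told apart. Results are therefore also given without tMCAO brain library 1 and tMCAO blood library 1. Total counts were between 14348179 and 24460894 per library, and the receptor genes had between 19 counts (Ccr6 in tMCAO blood library 1) and 8094 counts (Ccr1 in the same library).

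Among the receptors of inflammatory recruitment is Ccr1, the receptor of Ccl3, Ccl5, Ccl6 and Ccl9 in the mouse (chromosome 9, 123962124 to 123968692, minus strand, GRCm38, 2 exons). Ccr1 stood at 229 and 39.1 CPM for tMCAO brain, 436 and 86.4 CPM for tMCAO blood and 3.79 and 11.8 CPM for sham blood. Both tMCAO brain and both tMCAO blood libraries were above both sham libraries, while brain and blood after tMCAO overlapped. Ccr1 spanned 6.81 on the log2 scale over the 6 libraries, the widest span among the 9 receptors. It was also the one receptor with its higher value in library 1 of both tMCAO groups. The 250 bases before its start are shown because this gene differed most in level between tMCAO and sham libraries. They come from RefSeq on GRCm38.p6 (chr9:123968693-123968942, minus strand, 5′ to 3′), with 43.6% G and C against a median of 52.4% over 32851 promoters.
Ccr1: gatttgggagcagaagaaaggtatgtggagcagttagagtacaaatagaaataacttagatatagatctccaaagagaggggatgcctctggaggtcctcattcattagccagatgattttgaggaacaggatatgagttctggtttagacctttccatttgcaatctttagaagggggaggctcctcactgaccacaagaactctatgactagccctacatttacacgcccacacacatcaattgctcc

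In this window none of 10 motifs was found on either strand. The motifs, each searched with its reverse complement, and the share of all 32851 windows that hold them were as follows. SP1 (GGGCGG) was in 32.7% of windows, the hypoxia response core (ACGTG) in 16.6% and the AP-1 motif (TGANTCA) in 6.75%. The ETS motif (CCGGAAG) was in 6.91%, the GATA motif (AGATAA) in 9.99% and the ROR motif (AGGTCA) in 14%. The T-box motif (GGTGTG) was in 16.3% and the E-box (CAGCTG) in 13%, and the longer motifs of NRF1 and NF-kB in 0.782% and 1.41%. A missing match says only that these letters are not in the window.

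Ccr2, the receptor that takes monocytes and activated T cells to Ccl2, Ccl7 and Ccl12, was abundant in every library (chromosome 9, 124101950 to 124113557, plus strand). Its level was 82.1 and 199 CPM for tMCAO brain, 251 and 374 CPM for tMCAO blood and 324 and 232 CPM for sham blood. Both brain libraries were below all 4 blood libraries, and the blood groups overlapped.

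Cxcr3, the receptor of the interferon-induced chemokines Cxcl9 and Cxcl10 on type 1 T cells, varied least (chromosome X, 101731535 to 101734269, minus strand). It stood at 29.5 and 47.7 CPM for tMCAO brain, 25.1 and 81.4 CPM for tMCAO blood and 52.0 and 62.3 CPM for sham blood, a span of 1.69 on the log2 scale. Both brain libraries were below both sham libraries, and tMCAO blood overlapped with each of the others. Cxcr6, the receptor of Cxcl16 on tissue-resident T cells (chromosome 9, 123806475 to 123811760, plus strand), gave 29.6 and 271 CPM for tMCAO brain, 28.5 and 129 CPM for tMCAO blood and 118 and 55.9 CPM for sham blood. All 3 groups overlapped, and brain library 2 held the highest level of the 6 libraries.

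Among the receptors of skin and mucosal homing, Ccr4 and Ccr6 were at their highest in sham blood. Ccr4, the receptor of Ccl17 and Ccl22 and one of the main chemokine receptors of Tregs (chromosome 9, 114490316 to 114504916, minus strand), had 1.81 and 14.4 CPM for tMCAO brain, 1.67 and 6.73 CPM for tMCAO blood and 49.3 and 30.1 CPM for sham blood. Ccr6, the receptor of Ccl20 on interleukin-17-producing T cells, Tregs and B cells (chromosome 17, 8236043 to 8257141, plus strand), had 4.96 and 11.9 CPM for tMCAO brain, 1.02 and 8.02 CPM for tMCAO blood and 40.2 and 23.8 CPM for sham blood. For both genes all 4 tMCAO libraries lay below both sham libraries, and brain and blood after tMCAO overlapped. Ccr9, the receptor of Ccl25 that guides T cells to the small intestine, had 2.66 and 15.2 CPM for tMCAO brain, 6.30 and 22.5 CPM for tMCAO blood and 12.9 and 19.6 CPM for sham blood, with overlap between all groups. Ccr9 is the least certain of the 9, since 21.5% of its exon bases are shared with Slc6a20a, Gm17200 or AC165425.1 (chromosome 9, 123678439 to 123784330, plus strand) and the strand setting of the counting is not given in the sources used here.

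The window before the first annotated start of Ccr6 (RefSeq, GRCm38.p6, chr17:8235793-8236042, plus strand, 5′ to 3′) is shown beside these levels because ROR factors are known regulators of Ccr6-bearing T cells. It holds 41.2% G and C. The capitals mark the reverse complement of the ROR motif AGGTCA, 44 bases before the start.
Ccr6: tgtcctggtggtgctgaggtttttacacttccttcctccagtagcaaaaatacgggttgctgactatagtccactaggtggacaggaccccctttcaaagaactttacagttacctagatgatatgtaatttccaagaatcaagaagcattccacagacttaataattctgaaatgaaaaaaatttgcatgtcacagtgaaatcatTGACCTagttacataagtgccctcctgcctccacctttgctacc

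No other of the 10 motifs was found in this window, and the ROR motif was in 14% of all windows, as given above. RefSeq gives a second Ccr6 window (chr17:8242276-8242525), which is not shown and held 0 ROR matches. That window held 1 match to the hypoxia response core and 1 to the GATA motif. A match is a description of the letters and not a bound site.

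Of the receptors of retention and follicle entry, Cxcr4 separated brain from blood. Cxcr4, the receptor of Cxcl12 (chromosome 1, 128588199 to 128592293, minus strand), stood at 72.9 and 48.5 CPM for tMCAO brain, 13.8 and 30.3 CPM for tMCAO blood and 21.2 and 20.5 CPM for sham blood. Both brain libraries lay above all 4 blood libraries. Cxcr5, the receptor of Cxcl13 that takes B cells and follicular T cells into follicles (chromosome 9, 44511787 to 44561877, minus strand), had 3.39 and 24.5 CPM for tMCAO brain, 1.40 and 8.62 CPM for tMCAO blood and 13.2 and 13.2 CPM for sham blood. Its tMCAO blood libraries were both below sham blood, and brain overlapped with both blood groups. A share of 3.3% of Cxcr5 exon bases overlaps Bcl9l on the other strand.

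The Cxcr4 window (RefSeq, GRCm38.p6, chr1:128592300-128592549, minus strand, 5′ to 3′) is shown because Cxcr4 is the receptor with both brain libraries above all blood libraries, and it differs in composition from the windows of Ccr1 and Ccr6, with 61.2% G and C. Capitals mark 3 matches to the reverse complement of the SP1 motif, CCGCCC, starting 95, 75 and 50 bases before the start, and 1 match to the NRF1 motif, starting 59 bases before it and overlapping the third SP1 match by 1 base.
Cxcr4: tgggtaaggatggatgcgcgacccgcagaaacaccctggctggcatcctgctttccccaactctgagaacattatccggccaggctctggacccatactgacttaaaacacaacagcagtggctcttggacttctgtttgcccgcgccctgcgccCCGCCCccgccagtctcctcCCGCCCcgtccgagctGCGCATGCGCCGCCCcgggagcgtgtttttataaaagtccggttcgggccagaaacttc

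No other of the 10 motifs was found in it. RefSeq windows were matched for 8 of the 9 receptors, all but Cxcr5.

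**Figure D1:**
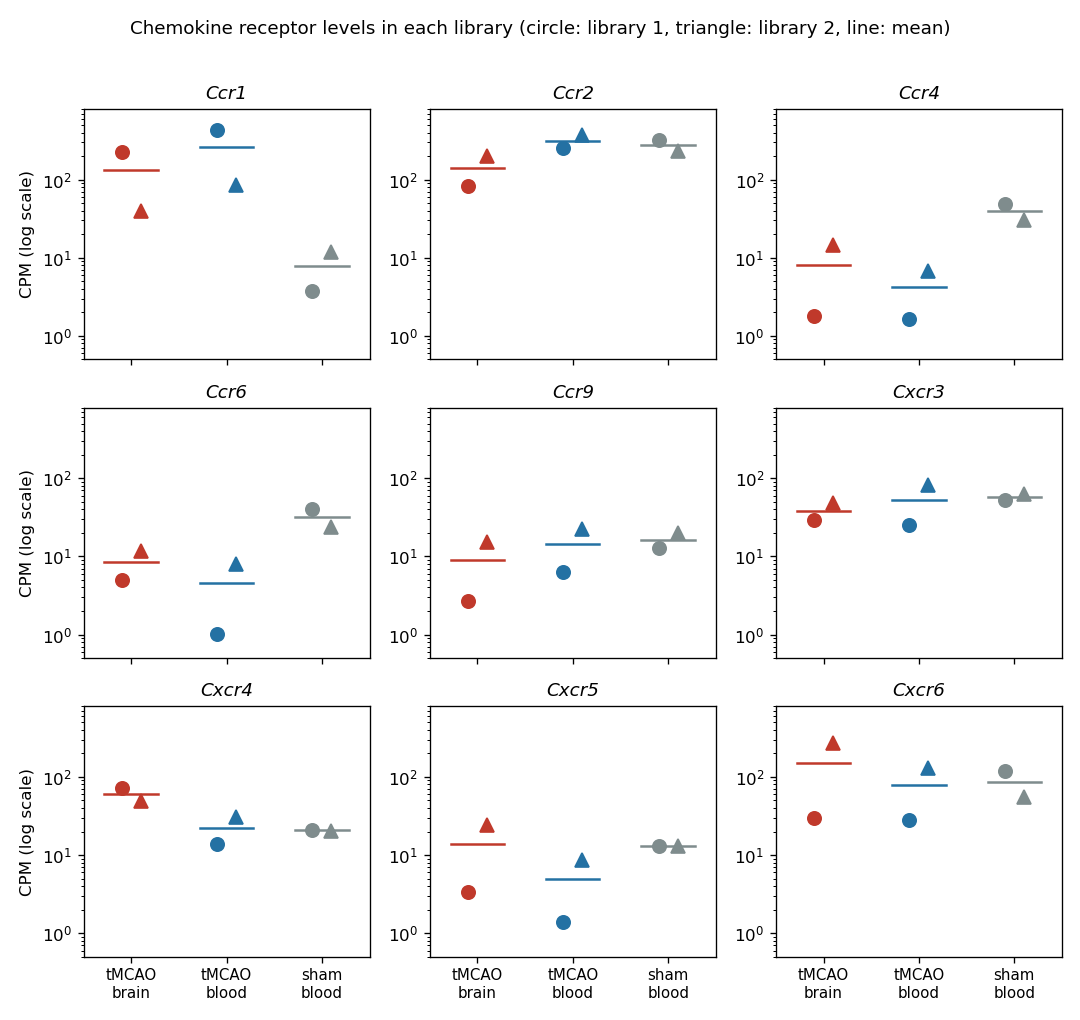
Level of each chemokine receptor gene in CPM on a log axis, by group, with library 1 as a circle, library 2 as a triangle and the group mean as a line. Cxcr4 sits at 72.9 and 48.5 CPM for tMCAO brain, above all blood libraries, and Ccr4 and Ccr6 lie lower in the 4 tMCAO libraries than in both sham libraries.

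Set per kilobase of exon, so that genes can be compared with each other, the order of the receptors differed between libraries. Cxcr6 led in tMCAO brain library 2 (140 CPM per kb), tMCAO blood library 2 (66.5 CPM per kb) and sham blood library 1 (60.9 CPM per kb). Ccr1 led in library 1 of tMCAO brain (80.7 CPM per kb) and of tMCAO blood (154 CPM per kb), and Cxcr3 in sham blood library 2 (36.0 CPM per kb). Ccr9 was the lowest of the 9 in both brain and both sham libraries, at 0.260 and 1.49 CPM per kb in tMCAO brain and 1.26 and 1.91 CPM per kb in sham blood.

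The 2 libraries of a tMCAO group differed widely in these receptors, and in a shared direction. In tMCAO brain 7 of the 9 were higher in library 2, all but Ccr1 and Cxcr4, while 49.8% of all genes tested were. In tMCAO blood 8 were higher in library 2, all but Ccr1, against 47.2% of all genes. In sham blood 4 were higher in library 2, against 47.6%. The widest gaps between the libraries of one group were those of Cxcr6 in tMCAO brain (log2 difference 3.19, library 2 over library 1), Ccr4 there (2.92) and Ccr6 in tMCAO blood (2.84). In sham blood Ccr1 had the widest gap, 1.61, and that of Cxcr5 was 0.0076. Library 2 also held more T cell RNA than library 1 in both tMCAO groups, as given above, and the part of this in the receptor levels was not tested.

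Brain and blood were compared after tMCAO to ask which receptors differ between cells sorted as Tregs from the injured brain and from blood. Cxcr4 was 2.75-fold higher in tMCAO brain, with a log2 change of 1.46 ± 0.44 (SE; 95% interval 0.40 to 2.52) and no overlap between the groups, but it did not pass the threshold of 0.05 after adjustment over all genes (edgeR adjusted p = 0.0952). Ccr2 was the one receptor with both brain libraries lower, at a log2 change of -1.15 ± 0.49 (95% interval -2.35 to 0.04, edgeR adjusted p = 0.191). None of the 9 receptors passed, against 4.9% of all genes tested. At an unadjusted p under 0.05 there was 1 receptor, Cxcr4, against 28% of all genes. With DESeq2 there was also 1, Cxcr4 (adjusted p = 0.0261), against 21.7% of all genes, and with limma-voom 0 passed after adjustment, against 8.68%.

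For the other 7 receptors the brain and blood levels overlapped. The log2 changes of tMCAO brain over tMCAO blood were 1.48 ± 1.10 for Cxcr5, 0.96 ± 1.02 for Ccr4, 0.94 ± 1.10 for Cxcr6 and 0.90 ± 0.92 for Ccr6. They were -0.47 ± 0.56 for Cxcr3, -0.68 ± 0.91 for Ccr9 and -0.96 ± 1.06 for Ccr1. Their edgeR adjusted p lay between 0.414 (Cxcr5) and 0.657 (Ccr9). For Cxcr6 the 95% interval was -1.72 to 3.59, so neither a lower nor a several-fold higher level in brain was outside it. The median over the 9 receptors was 0.90, beside 0.06 over all genes. Groups without overlap numbered 1 receptor higher (31.4% of all genes) and 1 lower (25.9% of all genes).

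Without library 1 of either tMCAO group, 1 library is left on each side, which is assumed to vary like the sham pair. Cxcr5 then passed as higher in brain, with a log2 change of 1.43 ± 0.42 (edgeR adjusted p = 0.0431), while 19.9% of all genes passed. The change of Cxcr4 was 0.60 (edgeR adjusted p = 0.213) and that of Ccr2 -0.99 (edgeR adjusted p = 0.0514). Markers of B cells, which bear Cxcr5 and which the sort on CD4, CD25 and Foxp3 would remove, took 0.0193% and 0.153% of counts for tMCAO brain and 0.0149% and 0.0714% for tMCAO blood. All 10 B cell markers were detected in both brain libraries, and Fcer2a was at 0 in tMCAO blood library 1. The part of B cell RNA in the Cxcr5 values was not tested.

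The sorted cells of tMCAO blood and sham blood were compared to ask what the stroke model leaves in circulation after 14 days. Ccr1 was 33.6-fold higher in tMCAO blood (log2 change 5.07 ± 1.26, 95% interval 2.02 to 8.12, edgeR adjusted p = 0.0604). Ccr4 was 9.43-fold lower (log2 change -3.24 ± 1.09, 95% interval -5.87 to -0.60, edgeR adjusted p = 0.112) and Ccr6 7.05-fold lower (log2 change -2.82 ± 0.97, 95% interval -5.17 to -0.46, edgeR adjusted p = 0.118). None of the 9 receptors passed after adjustment, against 7.48% of all genes tested. At an unadjusted p under 0.05 there were these 3, against 29.6% of all genes. With DESeq2 the same 3 passed, Ccr1 (adjusted p = 2.25e-05), Ccr4 (0.00897) and Ccr6 (0.0159), against 22.7% of all genes. With limma-voom 0 passed after adjustment, against 6.88%.

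The other 6 receptors had small or uncertain differences. Cxcr5 was lower in both tMCAO blood libraries than in both sham libraries, at a log2 change of -1.39 ± 1.10 (edgeR adjusted p = 0.428). The remaining 5 overlapped between the groups, with log2 changes of 0.17 ± 0.49 for Ccr2, 0.08 ± 0.43 for Cxcr4, -0.10 ± 0.56 for Cxcr3, -0.14 ± 1.09 for Cxcr6 and -0.17 ± 0.91 for Ccr9 (edgeR adjusted p between 0.843 and 0.946). The median over the 9 receptors was -0.14, beside 0.11 over all genes. Groups without overlap numbered 1 receptor higher (33.6% of all genes) and 3 lower (30.4% of all genes).

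Without tMCAO brain library 1 and tMCAO blood library 1, tMCAO blood is library 2 alone, with Foxp3 at 5.18 CPM. The log2 changes over sham blood were then 3.52 for Ccr1, -2.51 for Ccr4 and -1.94 for Ccr6. The 12 monocyte and macrophage markers, a cell class that transcribes Ccr1 and Ccr2, took 2.67% and 1.48% of counts for tMCAO blood and 0.715% and 0.672% for sham blood, with none of the 12 at 0. The 10 neutrophil markers, of cells that also transcribe Ccr1, took 0.0282% and 0.785% for tMCAO blood and 0.000775% and 0.000425% for sham blood, where 7 and 8 of them were at 0. Per 1000 counts of the monocyte and macrophage markers, Ccr1 had 1.42 and 0.654 counts for tMCAO brain, 15.7 and 7.01 counts for tMCAO blood and 0.542 and 1.73 counts for sham blood. How many of all genes separate the groups on this scale was not computed. Csf1r is on this list and on that of the microglia markers, so the 2 lists are not independent. The part of these cells in the Ccr1 difference was not tested.

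Brain and sham blood were compared to set the sorted cells of the injured brain against those of mice without a stroke, so tissue and surgery cannot be told apart here. Ccr1 was 17.2-fold higher in tMCAO brain (log2 change 4.11 ± 1.20, 95% interval 1.19 to 7.02, edgeR adjusted p = 0.0777). Cxcr4 was 2.91-fold higher (log2 change 1.54 ± 0.44, 95% interval 0.48 to 2.60, edgeR adjusted p = 0.0732). None of the 9 receptors passed, against 10.6% of all genes tested. At an unadjusted p under 0.05 there were these 2, against 30.2% of all genes. DESeq2 called the same 2, Ccr1 (adjusted p = 0.000707) and Cxcr4 (0.0193), against 24.1% of all genes, and limma-voom called 0 after adjustment, against 11.3%.

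Below sham blood, with no overlap, lay Ccr4 (log2 change of tMCAO brain over sham blood -2.28 ± 1.04, edgeR adjusted p = 0.201), Ccr6 (-1.92 ± 0.94, 0.227), Ccr2 (-0.98 ± 0.49, 0.237) and Cxcr3 (-0.57 ± 0.56, 0.552). The overlapping receptors were Cxcr6 (0.79 ± 1.09), Cxcr5 (0.08 ± 1.07) and Ccr9 (-0.86 ± 0.92), with edgeR adjusted p between 0.583 and 0.972. The median over the 9 receptors was -0.57, beside 0.09 over all genes. Groups without overlap numbered 2 receptors higher (34.9% of all genes) and 4 lower (29.7% of all genes).

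Without tMCAO brain library 1 and tMCAO blood library 1, tMCAO brain is library 2 alone, which is assumed to vary like the sham pair. Foxp3 in that library, at 19.6 CPM, was still below both sham libraries (50.1 and 60.7 CPM). In this fit 5 receptors passed against sham blood, beside 27.4% of all genes, and all 5 calls rest on brain library 2. Higher in tMCAO brain were Ccr1 (log2 change 2.30, edgeR adjusted p = 0.00781), Cxcr6 (1.62, 0.00873) and Cxcr4 (1.19, 0.0114). Lower were Ccr4 (-1.49, 0.0183) and Ccr6 (-1.45, 0.0263). Cxcr6, one of these 5, had a log2 change of -1.55 when tMCAO brain library 2 was left out, so its direction rests on that library. The 10 markers of CD8 T and natural killer cells, which also bear Cxcr3 and Cxcr6, took 0.00923% and 0.121% of counts for tMCAO brain and 0.0225% and 0.0334% for sham blood, and 2 of them were at 0 in brain library 1. The 10 microglia markers took 0.779% and 0.816% of counts for tMCAO brain, 0.0622% and 0.0679% for tMCAO blood and 0.0269% and 0.0349% for sham blood, with Sall1 at 0 in all 4 blood libraries. Monocyte and macrophage markers took 13.4% and 5.98% of counts for tMCAO brain. Their part in the receptor levels of brain was not tested.

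**Figure D2:**
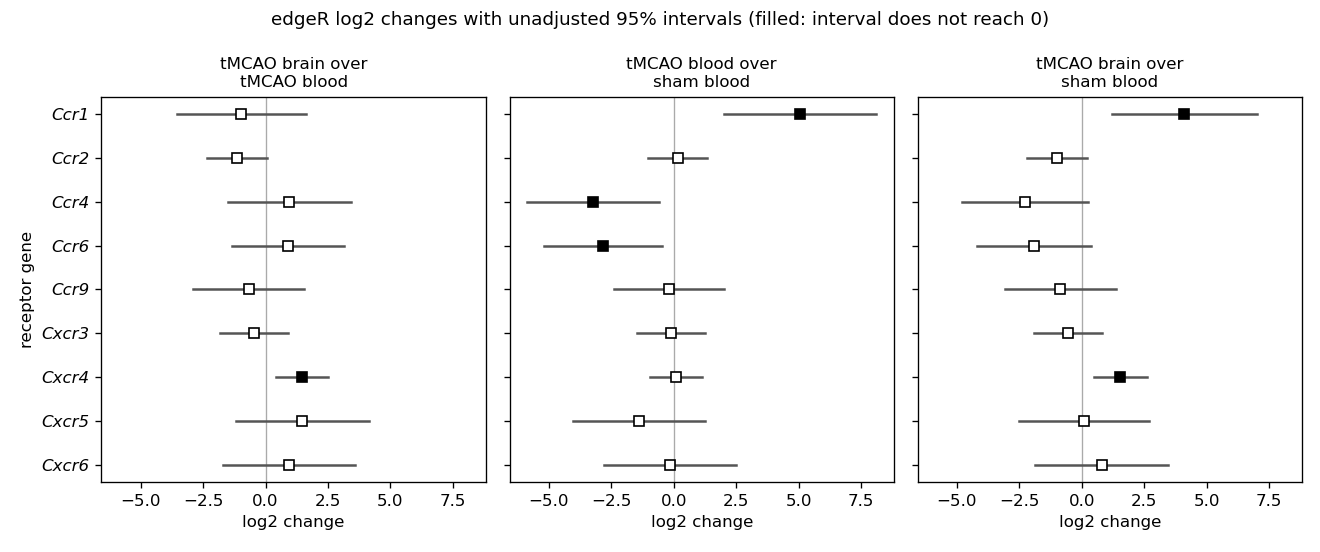
Log2 change of each receptor gene in the 3 comparisons, as fitted by edgeR, with unadjusted 95% intervals (filled squares where the interval does not reach 0). The 6 filled squares are Cxcr4 in tMCAO brain over tMCAO blood, Ccr1, Ccr4 and Ccr6 in tMCAO blood over sham blood, and Ccr1 and Cxcr4 in tMCAO brain over sham blood.

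The 3 comparisons share libraries, so their values are not independent of each other. Read side by side, Ccr1 was higher than sham blood in both tMCAO groups by 4.11 (brain) and 5.07 (blood) on the log2 scale. Ccr4 and Ccr6 had changes against sham blood of -2.28 and -1.92 in tMCAO brain and of -3.24 and -2.82 in tMCAO blood. Cxcr4 had a change against sham blood of 1.54 in tMCAO brain and of 0.08 in tMCAO blood. The direct comparison of tMCAO brain with tMCAO blood, given above, is the test of the difference between these pairs, and no receptor passed it by edgeR or limma-voom, while Cxcr4 passed by DESeq2.

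Set against the T cell RNA of each library, several receptors stood in a different order. Per 1000 counts of the 15 T cell markers, Cxcr6 had 89.8 and 190 counts for tMCAO brain, 43.3 and 36.9 counts for tMCAO blood and 14.8 and 7.09 counts for sham blood. Cxcr5 had 10.3 and 17.2 counts for tMCAO brain, 2.13 and 2.47 counts for tMCAO blood and 1.65 and 1.68 counts for sham blood. On this scale, unlike in CPM, neither gene overlapped between any pair of groups, with brain highest and sham blood lowest. The share of all genes higher without overlap on this scale was 22.1% for tMCAO brain over tMCAO blood, 75.7% for tMCAO blood over sham blood and 90.7% for tMCAO brain over sham blood. Per 1000 counts of the B cell markers, Cxcr5 had 14.6 and 16.0 counts for tMCAO brain, 9.06 and 14.5 counts for tMCAO blood and 15.6 and 13.4 counts for sham blood, and there brain and tMCAO blood each overlapped with sham blood. Per 1000 T cell marker counts, Cxcr4 had the same order of groups as Cxcr6 and Cxcr5. It had 221 and 34.1 counts for tMCAO brain, 21.0 and 8.69 counts for tMCAO blood and 2.66 and 2.61 counts for sham blood. Per 1000 B cell marker counts, Cxcr4 in tMCAO brain (314 and 31.7) overlapped with tMCAO blood (89.2 and 51.1).

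Ccr4 and Ccr6 also changed place on the scale of the T cell markers. Ccr4 had 5.51 and 10.1 counts per 1000 T cell marker counts for tMCAO brain, 2.54 and 1.93 counts for tMCAO blood and 6.20 and 3.82 counts for sham blood. Brain and sham blood overlapped, and both tMCAO blood libraries were below the rest (3.25% of all genes were lower without overlap in tMCAO blood than in sham blood on this scale). Ccr6 had 15.1 and 8.35 counts for tMCAO brain, 1.56 and 2.30 counts for tMCAO blood and 5.05 and 3.02 counts for sham blood, so brain was highest on this scale and tMCAO blood lowest. Scaling all libraries to the T cell markers moved the median of all genes by 1.03, 2.81 and 3.85 (log2) in the 3 comparisons in the order above. The receptors' own medians then were 1.80, 1.96 and 3.05, beside 0.90, -0.14 and -0.57 in CPM. In this scaling edgeR passed Ccr1 in tMCAO blood over sham blood (adjusted p = 0.0140), where 8.12% of all genes passed. In tMCAO brain over sham blood it passed Ccr1 (adjusted p = 0.00402) and Cxcr4 (0.0176), where 48.7% of all genes passed.

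**Figure D3:**
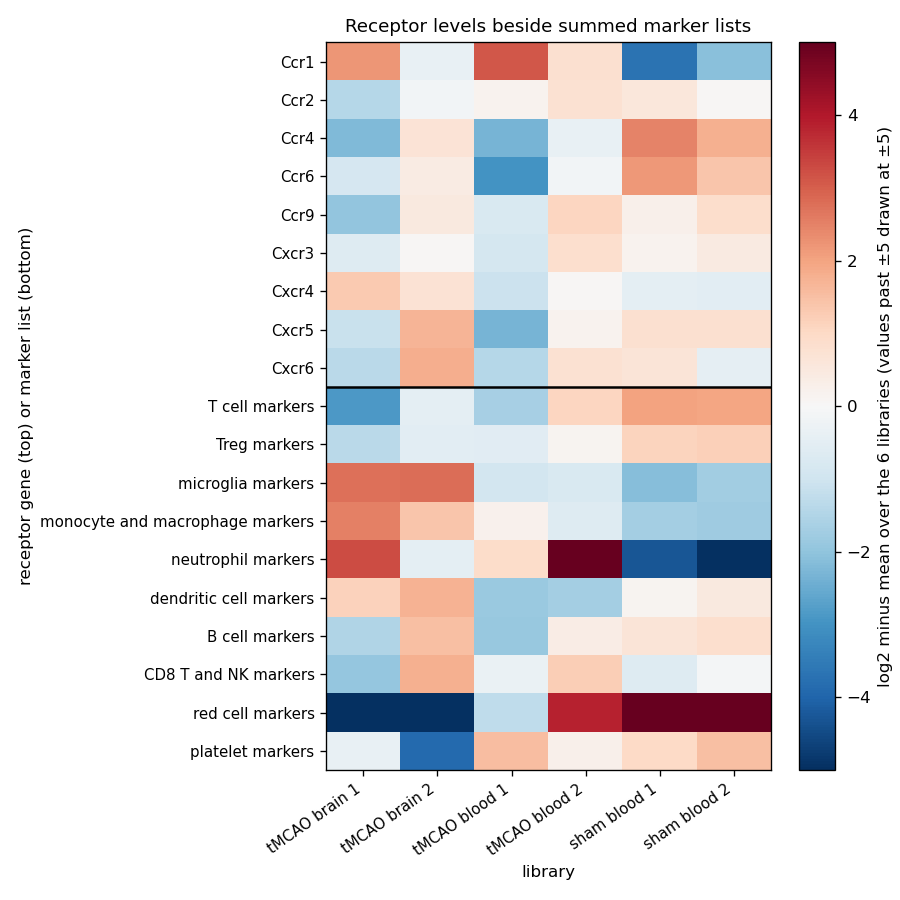
Log2 level of each receptor gene (top) and summed log2 share of each marker list (bottom) in the 6 libraries, each minus its own mean over the libraries, with red above and blue below the mean. Ccr1 is low in sham blood (3.79 and 11.8 CPM), Ccr4 and Ccr6 are high there, and Cxcr5 and Cxcr6 are highest in tMCAO brain library 2 (24.5 and 271 CPM). In that library the B cell, CD8 T and NK, microglia, dendritic cell, and monocyte and macrophage marker lists also stand above their means.

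The calls of single receptors moved with the settings of the test. In tMCAO blood over sham blood, Ccr1 passed with the stricter filter on low counts (edgeR adjusted p = 0.0452, with 16.9% of all genes passing) and with only these 2 groups fitted (0.0420, with 11.7%). It also passed without tMCAO brain library 1 (edgeR adjusted p = 0.0494, with 5.34%) or library 2 (0.0483, with 6.19%). Ccr4 passed in the same comparison with only the 2 groups fitted (edgeR adjusted p = 0.0486), and Ccr6 without tMCAO blood library 2 (0.0426, with 6.52%). Cxcr4 in tMCAO brain over sham blood passed with only the 2 groups fitted (edgeR adjusted p = 0.0293, with 17.8%) and without tMCAO blood library 1 (0.0367, with 11%) or library 2 (0.0385, with 10.7%). With no filter on low counts edgeR passed 2, 3 and 4 receptors in the 3 comparisons in the order above, where 11.5%, 11.6% and 14.3% of all genes passed. The directions of these 6 changes held in every one of the 15 alternative settings.

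**Figure D4:**
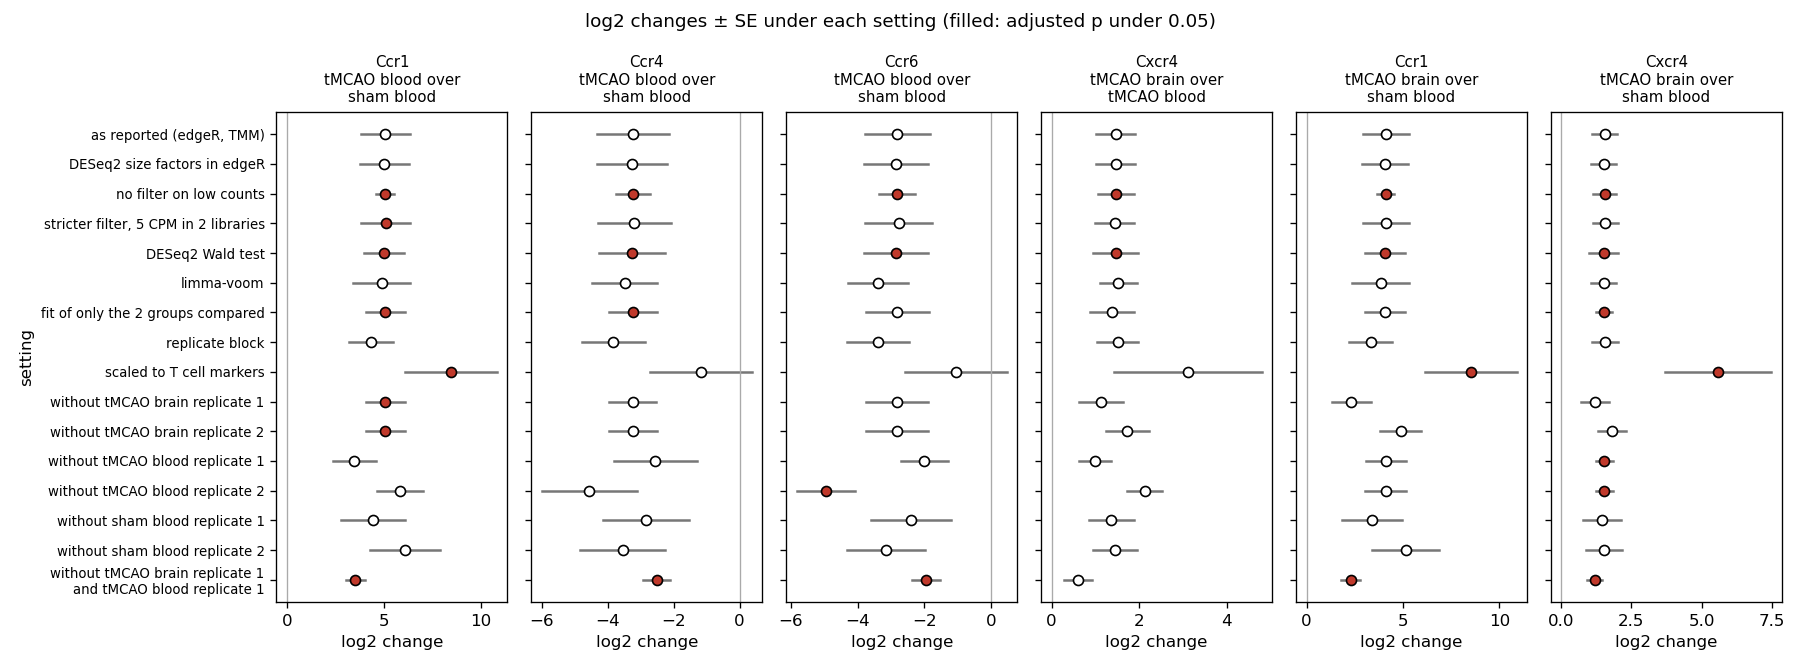
Log2 change with its standard error under each setting, for the 6 changes of a receptor with an unadjusted p under 0.05 as reported (filled circles: adjusted p under 0.05 in that setting). All circles of a panel lie on one side of 0, and Cxcr4 in tMCAO brain over tMCAO blood is 1.46 as reported and 0.60 without library 1 of both tMCAO groups.

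Ligands of the receptors were measured in the same libraries. Of 17 listed, 15 were tested, and edgeR called none lower in any comparison at an adjusted p under 0.05. Higher by the same test were 2 in tMCAO brain over tMCAO blood (3.53% of all genes higher, 1.37% lower), 3 in tMCAO blood over sham blood (4.33% of all genes higher, 3.15% lower) and 7 in tMCAO brain over sham blood (8.01% of all genes higher, 2.62% lower). In tMCAO brain over tMCAO blood, DESeq2 called Ccl6 and Ccl9 lower (adjusted p = 2.33e-05 and 0.000271), which edgeR did not (log2 change -4.40 and -3.70, adjusted p = 0.0719 and 0.0793). DESeq2 also called Ccl3, Cxcl10 and Ccl8 higher there (adjusted p = 1.46e-06, 4.73e-05 and 0.0165), which edgeR did not (adjusted p = 0.0588, 0.0686 and 0.0918). By DESeq2 21.7% of all genes passed in this comparison. Cxcl16, the ligand of Cxcr6, passed in all 3. It stood at 446 and 359 CPM for tMCAO brain, 30.8 and 15.2 CPM for tMCAO blood and 1.73 and 3.73 CPM for sham blood. The groups did not overlap, and the changes were 17.5-fold for brain over tMCAO blood (edgeR adjusted p = 0.0229), 8.43-fold for tMCAO blood over sham blood (0.0353) and 147-fold for brain over sham blood (0.00841). Ccl22, a ligand of Ccr4, stood at 55.1 and 228 CPM for tMCAO brain, 0.431 and 0 CPM for tMCAO blood and 0 counts in both sham libraries, where a count of 0 allows up to 0.193 and 0.211 CPM, counting error only. It rose in tMCAO brain over tMCAO blood (edgeR adjusted p = 0.0348) and over sham blood (0.0197). Other ligand genes that passed were Ccl6 (71.9-fold) and Ccl9 (47.9-fold), ligands of Ccr1, in tMCAO blood over sham blood, and Ccl3 (124-fold) in tMCAO brain over sham blood (edgeR adjusted p = 0.0409, 0.0402 and 0.0254). In tMCAO brain over sham blood, the 7 also included Ccl5, Ccl7, Ccl8 and Cxcl10 (edgeR adjusted p = 0.0428, 0.0498, 0.0279 and 0.0351). Of these, Ccl7 and Ccl8 did not pass by limma-voom (adjusted p = 0.277 and 0.132).

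Some ligands differed widely between the 2 libraries of a group. Cxcl12, the ligand of Cxcr4, had 0.665 and 57.1 CPM for tMCAO brain and 0 counts in all 4 blood libraries, and was left out by the filter on low counts. Cxcl13, the ligand of Cxcr5, had 1.21 and 176 CPM for tMCAO brain, 83.7 and 1.45 CPM for tMCAO blood and 0 counts for sham blood. Ccl20, the ligand of Ccr6, had 0 counts in 5 of the 6 libraries. The ligands are also made by microglia, macrophages and dendritic cells, whose marker shares are given above except for dendritic cells, and the part of those cells was not tested.

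Of 14 other chemokine receptors, 11 were tested by edgeR. In tMCAO brain over tMCAO blood 3 were higher and 1 lower (3.53% and 1.37% of all genes), in tMCAO blood over sham blood 2 were higher and 0 lower (4.33% and 3.15% of all genes), and in tMCAO brain over sham blood 4 were higher and 1 lower (8.01% and 2.62% of all genes). Ccrl2, an atypical receptor that binds chemerin, stood at 1412 and 618 CPM for tMCAO brain, 22.1 and 9.57 CPM for tMCAO blood and 6.35 and 7.11 CPM for sham blood. Cx3cr1, the fractalkine receptor of microglia and monocytes, stood at 1005 and 695 CPM for tMCAO brain, 22.5 and 61.6 CPM for tMCAO blood and 43.2 and 51.6 CPM for sham blood. Both rose in brain, over tMCAO blood by 64.0-fold and 20.2-fold (edgeR adjusted p = 0.0182 and 0.0240) and over sham blood by 151-fold and 17.9-fold (0.00914 and 0.0146). Ccr3, the eotaxin receptor of eosinophils, was at 0.665 and 0.817 CPM for tMCAO brain, 6.73 and 23.8 CPM for tMCAO blood and 49.4 and 31.2 CPM for sham blood, and it fell in brain over tMCAO blood (20.3-fold, edgeR adjusted p = 0.0341) and over sham blood (53.6-fold, 0.0142). Ackr3, a decoy receptor that shares Cxcl12 with Cxcr4, had 4.72 and 4.58 CPM for tMCAO brain, 27.6 and 12.8 CPM for tMCAO blood and 0 counts for sham blood, and passed over sham blood in brain (edgeR adjusted p = 0.0144) and in tMCAO blood (0.0313).

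Of 23 tested genes that carry or end the receptor signal, edgeR called 2 higher and 3 lower in tMCAO brain over tMCAO blood, where 4.9% of all genes passed. It called 0 higher and 2 lower in tMCAO blood over sham blood (7.48% of all genes), and 3 higher and 2 lower in tMCAO brain over sham blood (10.6% of all genes), so the share in tMCAO blood over sham blood is near that of all genes. Rgs1, which shortens G protein signals below chemokine receptors, stood at 900 and 763 CPM for tMCAO brain, 90.3 and 116 CPM for tMCAO blood and 236 and 314 CPM for sham blood, and rose 8.07-fold in brain over tMCAO blood (edgeR adjusted p = 0.0187). Rac2, a GTPase of leukocyte movement, was at 578 and 696 CPM for tMCAO brain, 614 and 732 CPM for tMCAO blood and 2133 and 2262 CPM for sham blood, and fell in both tMCAO groups against sham (log2 change -1.79 in brain, edgeR adjusted p = 0.0282, and -1.71 in tMCAO blood, 0.0412). Of 14 genes of adhesion and egress, 1 was higher and 3 lower, 1 higher and 2 lower, and 1 higher and 1 lower in the 3 comparisons in the same order, where 4.9%, 7.48% and 10.6% of all genes passed, and the last of these counts is near its share over all genes. Icam1, an adhesion molecule bound by leukocyte integrins, stood at 236 and 290.4 CPM for tMCAO brain, 9.85 and 3.39 CPM for tMCAO blood and 29.3 and 58.7 CPM for sham blood. It rose 39.8-fold in brain over tMCAO blood (edgeR adjusted p = 0.0223) and 5.99-fold in brain over sham blood (0.0444). In tMCAO blood over sham blood it had a log2 change of -2.73 (edgeR adjusted p = 0.0495), a call lost when any 1 of the 6 libraries was left out. It was also lost with only the 2 groups fitted (edgeR adjusted p = 0.0521), with the replicate number as a block (0.0566) and with libraries scaled to the T cell markers (0.797).

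These calls of ligands, other receptors, signalling and adhesion genes, 44 in all, were sensitive to single libraries. None of the 15, 10 and 19 calls in the 3 comparisons passed with every library left out in turn, and the edgeR adjusted p then ran from 0.0220 to 0.137, 0.0172 to 0.304 and 0.00594 to 0.305. Without either sham library no gene passed in the 2 comparisons with sham blood, and without tMCAO blood library 1 none passed in tMCAO blood over sham blood, all by edgeR. In tMCAO brain over tMCAO blood the calls of Cxcl16, Ccrl2 and Icam1 were lost without tMCAO blood library 2 or either sham library, that of Cx3cr1 without either sham library, and those of Ccl22, Ccr3 and Rgs1 without at least 4 single libraries. With only the 2 groups compared fitted, 0, 9 and 19 of the calls passed, so all 15 of tMCAO brain over tMCAO blood were lost. With libraries scaled to the T cell markers 1, 4 and 15 of the calls passed.

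Genes whose levels followed a receptor most closely over the 6 libraries were sought among 6730 with at least 20 CPM in a group, by the root mean square (RMS) difference of their mean-centred log2 CPM. The libraries, their depth and their mixture of cells are common to all genes, so likeness is a description. Closest to Ccr1 were Psd3, Myof and Eps8 (RMS difference 0.329, 0.432 and 0.464). Closest to Ccr4 were Ets1, Ubash3a and Rhof (0.341, 0.394 and 0.442), and closest to Ccr6 were St8sia6, Tnfrsf4 and Rab4a (0.368, 0.380 and 0.446). Of these, Ets1 and Ubash3a are genes of lymphocytes and Tnfrsf4 encodes the costimulatory receptor OX40 of Tregs. Closest to Cxcr5 were P2ry10, Ctsw and Ighm (0.185, 0.222 and 0.257). Cxcr4 was nearest to Pafah1b3, Extl3 and Lpin1 (0.244, 0.256 and 0.271), and Cxcr6 to D16Ertd472e, Ppp3cc and Mbp (0.526, 0.541 and 0.562). Nearest to Ccr2 were Rps15a, Rpl12 and Top2b (0.0780, 0.159 and 0.173), to Cxcr3 Zbtb44, Syt11 and Rif1 (0.209, 0.209 and 0.210), and to Ccr9 Septin6, Rab19 and Cd160 (0.305, 0.385 and 0.387). Among the 9 receptors themselves the nearest pairs were Ccr2 with Cxcr3 (0.585), Ccr9 with Cxcr3 (0.609), Ccr2 with Ccr9 (0.635), Ccr4 with Ccr6 (0.673) and Cxcr5 with Cxcr6 (0.687). The most distant pair was Ccr1 with Ccr4 (4.17).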

How the data were processed

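The authors deposited read counts for each gene as whole numbers, obtained with STAR, HTSeq 0.11.2 and the build GRCm38, per the submitters' processing notes. The annotation release, strand setting and treatment of reads with several positions are not given in the sources used here. Per the labels' protocols, the SMART-Seq ultralow input chemistry gave cDNA, Nextera XT gave the libraries, and both ends were read over 75 bp. No molecular identifiers are stated, so intervals and floors (3 counts) cover counting error only. No table row lacked a gene name.

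Genes were filtered with filterByExpr (minimum count 10). TMM gave the scaling, and the test was edgeR's quasi-likelihood test (version 4.0.16, R 4.3.3) in a joint fit of all 6 libraries, with 3 residual degrees of freedom. P-values were adjusted by Benjamini-Hochberg over 16657 genes, with a threshold of 0.05. CPM use TMM-adjusted library sizes, and profiles use log2 CPM with a prior count of 2. The standard error is the log2 change divided by the square root of F. DESeq2 1.42.0, limma-voom (limma 3.58.1), other filters and scalings, a replicate block and left-out libraries were alternatives. Library 1 of both tMCAO groups was left out together because Foxp3 was low there. Coordinates and exon lengths come from GENCODE M21, and promoter windows from RefSeq. Counts of the 2 libraries of a group differed beyond counting noise, with a chi-square statistic per degree of freedom of 232 for brain, 245 for blood after tMCAO and 28.1 for sham blood. The receptors, gene lists and alternatives were chosen with earlier results of these data known. Besides the 9 receptors, up to 4 called genes of each list were eligible to be named in a comparison, by smallest adjusted p, and a selection is given. For the ligands, all 7 called in tMCAO brain over sham blood are named. For each receptor the 3 genes nearest in profile are named, leaving out predicted genes, pseudogenes and variable segments of antigen receptors.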

Additional observations from a re-analysis of the deposited data

How the results depend on the processing

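Of 405 values (27 changes of single receptors under 15 alternative settings), 331 kept their direction and side of the threshold, 36 newly passed and 38 turned direction, 0 of which passed. The number of receptors passing, 0 as reported in each comparison, was as follows. In tMCAO brain over tMCAO blood it was 2 with no filter and 1 by DESeq2, and 0 to 1 with libraries left out. In tMCAO blood over sham blood it was 3 with no filter, 1 with the stricter filter, 3 by DESeq2, 2 with only the 2 groups fitted and 1 scaled to T cell markers, and 0 to 3 with libraries left out. In tMCAO brain over sham blood it was 4, 2 (DESeq2), 1 (2 groups) and 2 (T cell markers), and 0 to 5 with libraries left out.

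Over all genes, 816, 1246 and 1772 passed in these comparisons. In the first, 3598 passed with no filter, 1237 with the stricter filter, 3469 by DESeq2, 1446 by limma-voom, 26 with only the 2 groups fitted and 420 scaled to T cell markers, and 31 to 3609 with libraries left out. In the second it was 3611 with no filter and 3789 by DESeq2, and 0 to 3850 with libraries left out. In the third it was 4458 with no filter, 4007 by DESeq2, 2752 with 2 groups and 8117 scaled to T cell markers, and 0 to 4979 with libraries left out. Under T cell scaling 91.9%, 99.8% and 99.3% of calls were higher, because that scaling moves all genes.

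Directions turned under T cell scaling for Ccr1 (0.069), Ccr9 (0.23) and Cxcr3 (1.00) in tMCAO brain over tMCAO blood; for Ccr9 (1.96), Cxcr3 (2.09), Cxcr5 (0.47) and Cxcr6 (1.87) in tMCAO blood over sham blood; and for Ccr2 (2.47), Ccr4 (0.65), Ccr6 (1.53), Ccr9 (2.19) and Cxcr3 (3.09) in tMCAO brain over sham blood. By limma-voom they turned for Cxcr4 in tMCAO blood over sham blood (-0.020) and Cxcr5 in tMCAO brain over sham blood (-0.35). With libraries left out, the log2 changes of tMCAO brain over tMCAO blood ran from -2.75 to 0.63 (Ccr1), -1.20 to 2.27 (Ccr4), -2.43 to 0.50 (Ccr9), -1.08 to 0.61 (Cxcr3), -0.56 to 3.30 (Cxcr5) and -1.40 to 2.38 (Cxcr6). Those of tMCAO blood over sham blood ran from -0.15 to 0.48 (Ccr2), -1.37 to 0.51 (Ccr9), -1.18 to 0.56 (Cxcr3), -0.60 to 0.58 (Cxcr4) and -1.61 to 0.62 (Cxcr6), and those of tMCAO brain over sham blood from -1.96 to 0.88 (Cxcr5) and -1.55 to 1.63 (Cxcr6). Apart from the scaling, the cause was not tested.

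The replicate numbers were not taken as pairs, since the deviations of same-numbered libraries correlated at 0.304 between tMCAO brain and tMCAO blood but at -0.0702 and -0.0285 in the pairs with sham blood. With the replicate number as a block, 0 receptors passed in any comparison, 803, 1318 and 1977 genes passed, and the changes of Cxcr5 (-0.70) and Cxcr6 (-0.16) in tMCAO brain over sham blood turned direction. The lowest count of a receptor in a library was 19, and the widest gap between the 2 libraries of a group was that of Cxcr6 in tMCAO brain (29.6 and 271 CPM).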

Other observations

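Ccr9, Cxcr6, Ccr1 and Ccr2 lie close together on chromosome 9 (GRCm38) with Xcr1 and Ccr3 among them, in the order Ccr9, Cxcr6, Xcr1, Ccr1, Ccr3 and Ccr2. Ccr3, between Ccr1 and Ccr2, was lowest in tMCAO brain and highest in sham blood. Xcr1, a receptor of cross-presenting dendritic cells, stood at 9.07 and 62.4 CPM for tMCAO brain, 0.808 and 1.49 CPM for tMCAO blood and 3.15 and 0.704 CPM for sham blood, and did not pass by edgeR in any comparison (adjusted p between 0.0657 and 0.677). DESeq2 passed it in tMCAO brain over tMCAO blood (adjusted p = 4.29e-05) and over sham blood (0.000541). The 10 dendritic cell markers, Xcr1 and Ccr7 among them, took 0.124% and 0.187% of counts for tMCAO brain, 0.0152% and 0.0172% for tMCAO blood and 0.0617% and 0.0778% for sham blood, and their part in the Xcr1 values was not tested. Ccr7 made up most of this list in sham blood, with 7661 of 9387 and 9590 of 11160 counts. It had 9738 of 24612 and 18268 of 45817 in tMCAO brain, and 67 of 2942 and 824 of 2872 in tMCAO blood. Shares without Ccr7 were not computed.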
